A study of Xenopus laevis with 20 samples.

Results

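The *sox* genes encode transcription factors that share a DNA-binding HMG domain, and they were read here from 18 of the 15491 tested probe sets of the Affymetrix *X. laevis* Genome Array. Every probe set whose only gene symbol is *sox* and a number, with any letter and the .L or .S of the homeologous chromosome, was taken, and the 18 probe sets stand for 16 symbols. Within the family this rule had no regard to the values, but the family itself was chosen with earlier results of these data known. There were 4 probe sets of the SoxB1 group (*sox2.L* with 2 probe sets, *sox3.L*, *sox3.S*), 3 of SoxC (*sox4.L*, *sox11.S*, *sox12.S*), 1 of SoxD (*sox13.S*), 2 of SoxE (*sox9.S*, *sox10.L*), 7 of SoxF (*sox7.L*, *sox17a.L*, *sox17a.S*, *sox17b.1.S* with 2 probe sets, *sox18.L*, *sox18.S*) and 1 of SoxG (*sox15.L*). A further probe set carries the symbols of both *sox11* homeologs and was not used.

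The samples were bisected *X. laevis* gastrulae, 10 pieces per array, from embryos injected with *eGFP* mRNA on the ventral side at the 4-cell stage. **Nog**, **Nog+Dkk** and **Dkk** were ventral pieces of embryos that also received plasmid for *noggin* (a secreted BMP antagonist), for *noggin* and *dkk-1* together, or for *dkk-1* (a secreted Wnt antagonist), while **Dor** and **Ven** were the dorsal and ventral pieces of embryos given *eGFP* alone. Each of the 5 conditions had 2 arrays at stage 11.5 (late gastrula, clutches 3 and 4) and 2 at stage 10 (early gastrula, clutches 1 and 2), 20 arrays in all, and the 5 arrays of a clutch came from the same batch of eggs. The antagonists were supplied as plasmid and the eGFP tracer as mRNA, so eGFP marks the injected region and not uptake of plasmid. It also guided the cut at stage 11.5, where no outer landmark tells dorsal from ventral. A piece holds all germ layers, so fewer cells with a transcript and less transcript per cell cannot be told apart in any value below.

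In the vertebrate embryo SoxB1 proteins hold cells in a neural progenitor state, and *sox2* is a common marker of the early neural plate. SoxC proteins act in neurons and their progenitors, SoxE proteins in the neural crest, the otic placode and cartilage, and SoxF proteins in the endoderm (*sox17*) and in vessels (*sox7*, *sox18*). The organizer, the dorsal lip of the gastrula, secretes BMP and Wnt antagonists, and ectoderm shielded from BMP becomes neural. The comparisons below ask which *sox* transcripts differ when these antagonists are supplied ventrally, and whether they differ the same way in the endogenous dorsal pieces.

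The deposited values are RMA intensities, given here as log2. Array medians lay between 6.65 and 6.69 at stage 11.5 and, higher throughout, between 6.81 and 6.90 at stage 10. Levels are compared only within a probe set, apart from sums over the same listed probe sets. Differences were tested in limma with the clutch as a block, and a probe set is said to have risen or fallen where its Benjamini-Hochberg adjusted p, taken over all 15491 probe sets of that comparison, was below 0.1. The injected and dorsal tissue differed from **Ven** in the listed markers. *dkk1.S* was 2.10 higher (log2) in **Dkk** and 2.30 higher in **Nog+Dkk** than in **Ven** at stage 11.5, *nog.L* was 0.63 higher in **Nog**, and 14 of 15 probe sets of organizer genes rose in **Dor**. For 2 arrays, stage 10 **Nog+Dkk** and **Dkk**, the labels give 2 clutch numbers; they were taken as clutch 2, as titled.

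At stage 11.5 the *sox* genes that departed from **Ven** were *sox2.L*, *sox9.S* and *sox11.S*. In **Dor** 3 of the 18 probe sets rose and 1 fell, where 2.84% of all tested probe sets were called. In **Nog+Dkk** 2 rose and 1 fell (4.60% of all), in **Nog** 0 rose and 1 fell (8.57% of all), and in **Dkk** 0 were called (0.445% of all). In **Dkk** 2 of the 18 had an unadjusted p under 0.05, both of them probe sets of *sox2.L*. Here and below, unadjusted counts were made for the *sox* probe sets alone, so no array-wide share stands beside them. The median change of the 18 was -0.05 in **Dor** (all probe sets -0.02), -0.04 in **Nog+Dkk** (all -0.04), 0.01 in **Nog** (all -0.03) and 0.08 in **Dkk** (all -0.01), and the calls came from 3 genes.

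**Figure D1:**
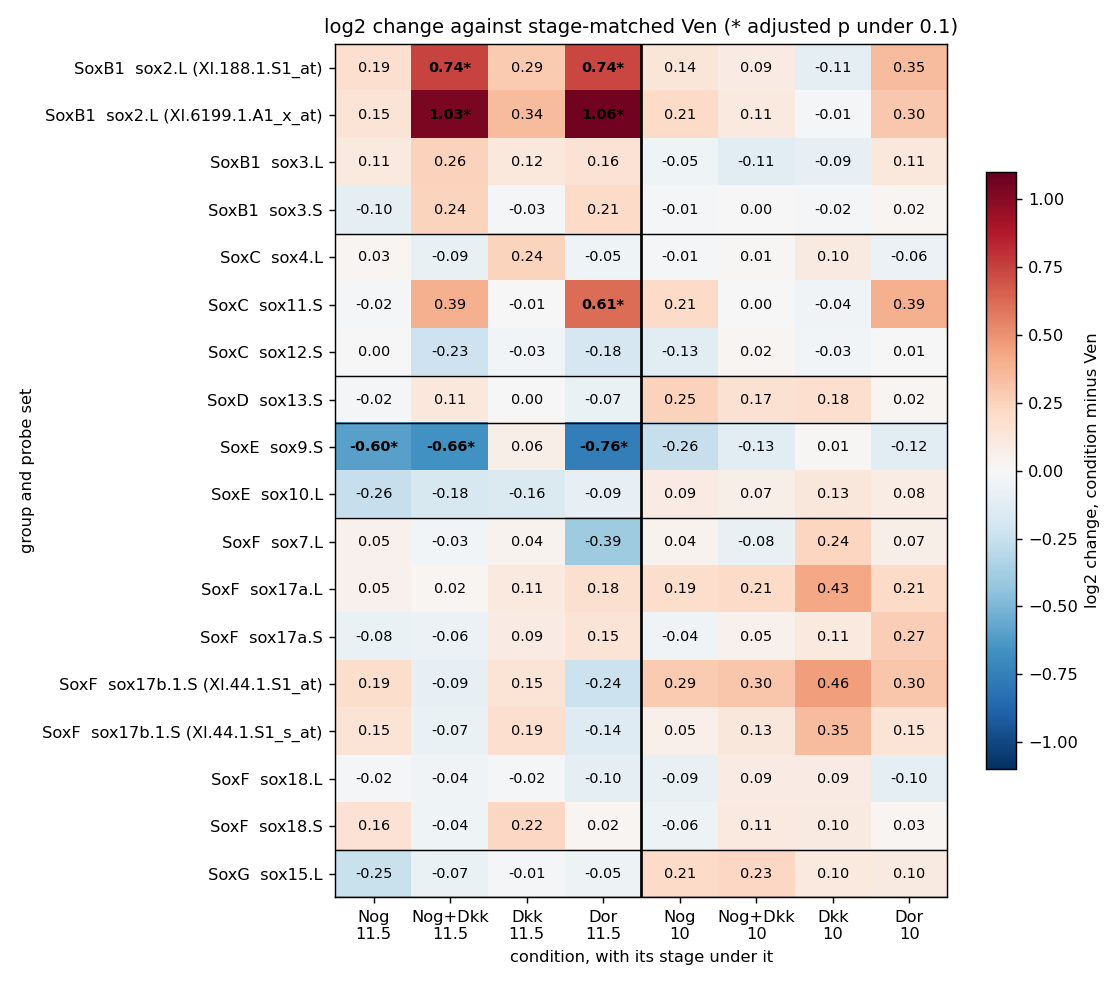
The log2 change of each of the 18 *sox* probe sets (down the page, by group) against stage-matched **Ven**, for 4 conditions at stage 11.5 (left of the thick line) and stage 10 (right); red is higher and blue lower than **Ven**, and an asterisk marks an adjusted p below 0.1. The 8 marked cells all lie at stage 11.5, in *sox2.L* (up to 1.06), *sox11.S* (0.61) and *sox9.S* (down to -0.76).

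*sox2.L* was higher in **Nog+Dkk** and **Dor** than in the other tissue at stage 11.5. Its first, brighter probe set read 9.77 and 9.79 in **Nog+Dkk** (log2 intensity, clutch 3 then clutch 4, here and in the next sentences), 9.91 and 9.64 in **Dor**, 9.36 and 9.10 in **Nog** and 9.46 and 9.20 in **Dkk**, against 9.08 and 8.99 in **Ven**. The second probe set is much dimmer, and its _x_at name marks it as open to signal from like transcripts. It read 6.96 and 6.49 in **Nog+Dkk**, 6.81 and 6.69 in **Dor**, 6.16 and 5.53 in **Nog** and 6.13 and 5.95 in **Dkk**, against 5.59 and 5.79 in **Ven**. On both probe sets the 4 arrays of **Nog+Dkk** and **Dor** lay above all 6 arrays of the other conditions.

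The rise over **Ven** was 0.74 in **Nog+Dkk** (SE 0.14, 1.67-fold, adjusted p = 0.00569 in limma) and 0.74 in **Dor** (SE 0.14, 1.67-fold, adjusted p = 0.005) on the first probe set. On the second it was 1.03 in **Nog+Dkk** (SE 0.16, 2.05-fold, adjusted p = 0.00154) and 1.06 in **Dor** (SE 0.16, 2.08-fold, adjusted p = 6.35e-04). Rank products kept both *sox2.L* calls in **Dor**, and in **Nog+Dkk** that of the second probe set but not of the first (FDR 0.0866 and 0.178). In **Dkk** both probe sets were higher than **Ven** in both clutches, by 0.29 and 0.34, and neither passed the test (adjusted p = 0.614 and 0.613). In **Nog** the first probe set was 0.19 above **Ven** (95% interval -0.10 to 0.48), and the second differed by 0.57 in clutch 3 and by -0.26 in clutch 4.

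Setting the conditions against each other, **Nog+Dkk** minus **Nog** was 0.88 on the second *sox2.L* probe set (SE 0.16, adjusted p = 0.0178), the sole *sox* call of that comparison, where 0.658% of all probe sets were called. On the first probe set it was 0.55 (adjusted p = 0.115), which passed with dim probe sets left out (adjusted p = 0.0832) and without the 2 arrays with disagreeing labels (0.0854). **Nog+Dkk** minus **Dkk** was 0.69 on the second probe set (adjusted p = 0.122) and 0.45 on the first (adjusted p = 0.448). **Nog+Dkk** and **Dor** had like values of *sox2.L*, with a difference of 0.00 (95% interval -0.28 to 0.29) on the first probe set and -0.03 (-0.36 to 0.31) on the second. No *sox* probe set was called between those conditions (0 of 18, with 0.536% of all called, and 1 *sox* probe set with an unadjusted p under 0.05).

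Whether **Nog+Dkk** exceeded the sum of the **Nog** and **Dkk** changes was tested in the same fit. For *sox2.L* the excess was 0.26 (SE 0.19, adjusted p = 0.844) on the first probe set and 0.54 (SE 0.23, adjusted p = 0.598) on the second, and for *sox11.S* it was 0.41 (SE 0.17, adjusted p = 0.589). Over the 18 probe sets it ran from -0.43 (*sox17b.1.S*, *sox18.S*) to 0.54. No *sox* probe set passed (0 of 18, with 0.0129% of all called at stage 11.5, and 0 of 18 with 0% of all called at stage 10). At stage 11.5, 5 had an unadjusted p under 0.05, and the share of all probe sets at that level was not counted.

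**Figure D2:**
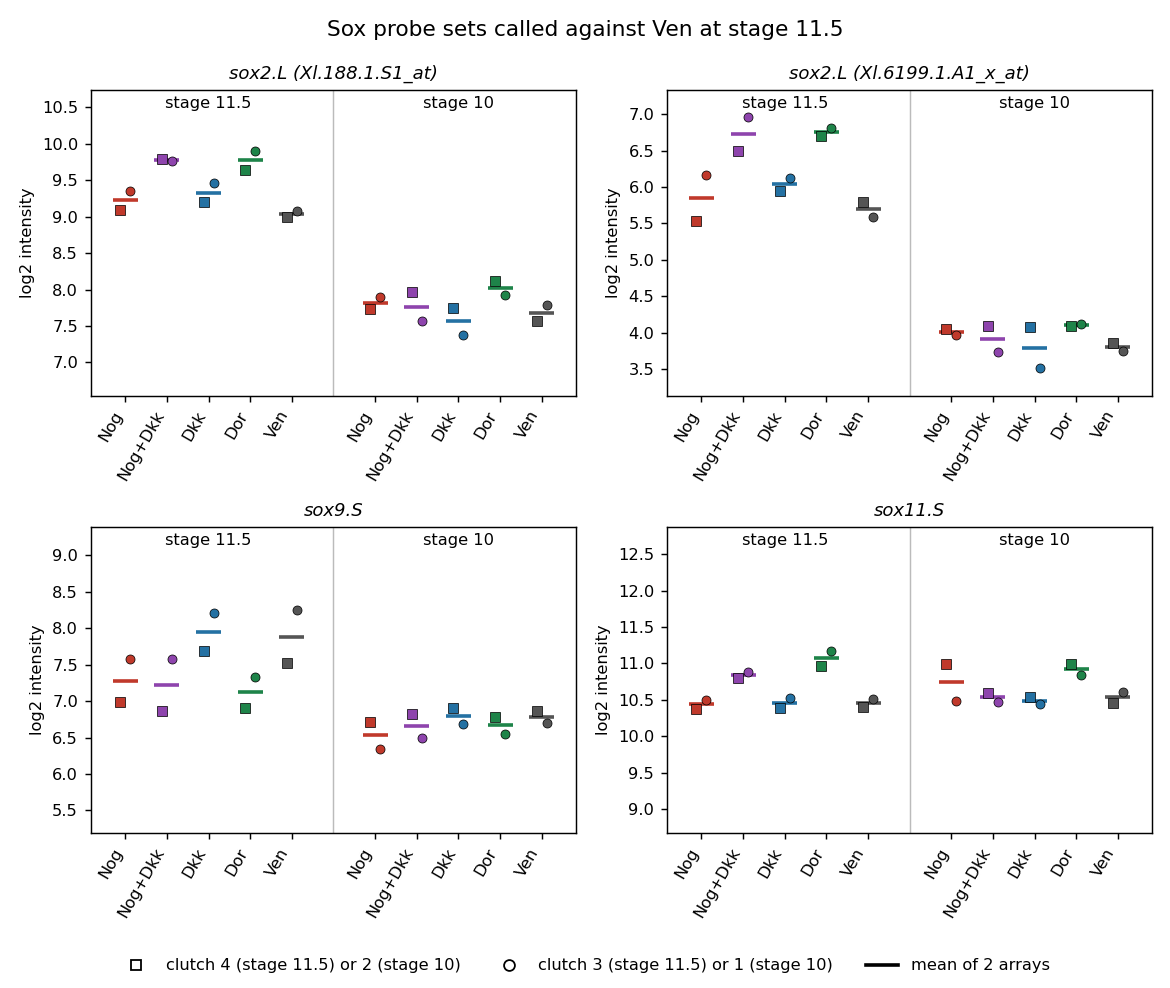
Log2 intensity (y axis, the same span in each panel) of the 4 probe sets called against **Ven**, by condition at stage 11.5 (left) and stage 10 (right), with a point per array (squares clutch 4 or 2, circles clutch 3 or 1) and a bar at the mean of 2 arrays. *sox2.L* is highest in **Nog+Dkk** and **Dor** at stage 11.5 on both probe sets, *sox9.S* is lower in **Nog**, **Nog+Dkk** and **Dor** than in **Dkk** and **Ven** within each clutch, and *sox11.S* is highest in **Dor** at stage 11.5.

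*sox9.S*, the SoxE gene best known from neural crest and cartilage, fell in **Nog**, **Nog+Dkk** and **Dor** at stage 11.5. It read 7.58 and 6.99 in **Nog** (clutch 3 then clutch 4), 7.58 and 6.86 in **Nog+Dkk**, 7.34 and 6.90 in **Dor** and 8.21 and 7.69 in **Dkk**, against 8.25 and 7.52 in **Ven**. The clutches themselves differed, so the groups overlap when pooled, but within each clutch the 3 lowered conditions lay below both **Dkk** and **Ven**. The change from **Ven** was -0.60 in **Nog** (SE 0.10, adjusted p = 0.00415), -0.66 in **Nog+Dkk** (SE 0.10, adjusted p = 0.00152) and -0.76 in **Dor** (SE 0.10, adjusted p = 1.71e-04), against 0.06 in **Dkk** (95% interval -0.15 to 0.28, adjusted p = 0.966). By rank products, the test the study's methods name, *sox9.S* kept its call in **Dor** but not in **Nog** or **Nog+Dkk** (FDR 0.0553, 0.521 and 0.18).

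Adding *dkk-1* to *noggin* left *sox9.S* near its **Nog** value. **Nog+Dkk** minus **Nog** was -0.06 (95% interval -0.28 to 0.15). **Nog+Dkk** minus **Dkk** was -0.73 (SE 0.10, adjusted p = 0.00456), the sole *sox* call of that comparison (0.336% of all). Without clutch 4 the difference was -0.63 and no longer passed (adjusted p = 0.13), and the second *sox2.L* probe set was called instead. The other SoxE gene, *sox10.L*, also a neural crest gene, lay between 2.82 and 3.18 on all 20 arrays, at the dim end of the array, and its changes from **Ven** ran from -0.26 (**Nog**, stage 11.5, adjusted p = 0.122) to 0.13.

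*sox11.S*, a SoxC gene of the neural plate and young neurons, rose in **Dor** at stage 11.5. It read 11.17 and 10.97 in **Dor**, 10.89 and 10.80 in **Nog+Dkk**, 10.50 and 10.38 in **Nog** and 10.52 and 10.38 in **Dkk**, against 10.51 and 10.40 in **Ven**. **Nog** and **Dkk** differed from **Ven** by -0.02 to 0.01 in either clutch, and **Nog+Dkk** lay between them and **Dor**. The change was 0.61 in **Dor** (SE 0.12, 1.53-fold, adjusted p = 0.00743), a call that rank products did not make (FDR 0.132), and 0.39 in **Nog+Dkk** (SE 0.12, adjusted p = 0.101). With dim probe sets left out the **Nog+Dkk** value passed as well (adjusted p = 0.0696), and **Nog+Dkk** minus **Dor** was -0.23 (95% interval -0.48 to 0.03). The other SoxC probe sets were dim and called in no comparison with **Ven**: *sox4.L* changed by -0.09 to 0.24 and *sox12.S* by -0.23 to 0.02 over the 8 comparisons.

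Further pairs of conditions at stage 11.5 were chosen after the values were seen. **Dor** against **Nog** gave 4 *sox* calls (6.78% of all): *sox11.S* was 0.63 higher (adjusted p = 0.00613), *sox2.L* 0.91 and 0.55 higher (adjusted p = 0.00382 and 0.033), and *sox7.L* changed by -0.44 (adjusted p = 0.0694). **Dor** against **Dkk** gave 3 (1.58% of all), with *sox9.S* at -0.83, the second *sox2.L* probe set at 0.72 and *sox11.S* at 0.62 (adjusted p = 1.44e-04, 0.0329 and 0.0102). **Nog** against **Dkk** gave 1 (0.626% of all), *sox9.S* at -0.66 (adjusted p = 0.0126).

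The calls against **Ven** at stage 11.5 rest on 2 clutches. With either left out, each group of that stage has 1 array, and the share of all probe sets called was not counted. Without clutch 3, the **Dor** change was 0.65 on the first *sox2.L* probe set and 0.57 on *sox11.S*, and neither passed any longer. The single **Nog** array of clutch 3 was high on the second *sox2.L* probe set, *sox3.L* and the dimmer *sox17b.1.S* probe set, which passed without clutch 4. The call of *sox2.L* in **Nog+Dkk** over **Nog** was lost without clutch 1 or clutch 2 (adjusted p = 0.12), which enter that test only through the estimate of the spread.

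The other SoxB1 gene, *sox3*, which is stored in the egg and widespread in the early ectoderm, was not called against **Ven** at either stage with both clutches in the fit. At stage 11.5 *sox3.L* read 10.60 and 10.87 in **Nog+Dkk**, 10.67 and 10.61 in **Dor**, 10.91 and 10.27 in **Nog** and 10.63 and 10.57 in **Dkk**, against 10.36 and 10.60 in **Ven**. *sox3.S* read 10.48 and 10.09 in **Nog+Dkk**, 10.36 and 10.13 in **Dor**, 10.23 and 9.65 in **Nog** and 10.11 and 9.92 in **Dkk**, against 10.10 and 9.99 in **Ven**. Within each clutch **Nog+Dkk** and **Dor** both lay above **Ven** on the 2 homeologs, in **Dor** by as little as 0.01 (*sox3.L*, clutch 4). **Nog+Dkk** minus **Ven** was 0.26 on *sox3.L* (95% interval -0.07 to 0.58) and 0.24 on *sox3.S* (-0.01 to 0.49), and **Dor** minus **Ven** was 0.16 (-0.17 to 0.48) and 0.21 (-0.05 to 0.46), so changes of the size seen on *sox2.L* lay outside these intervals.

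**Figure D3:**
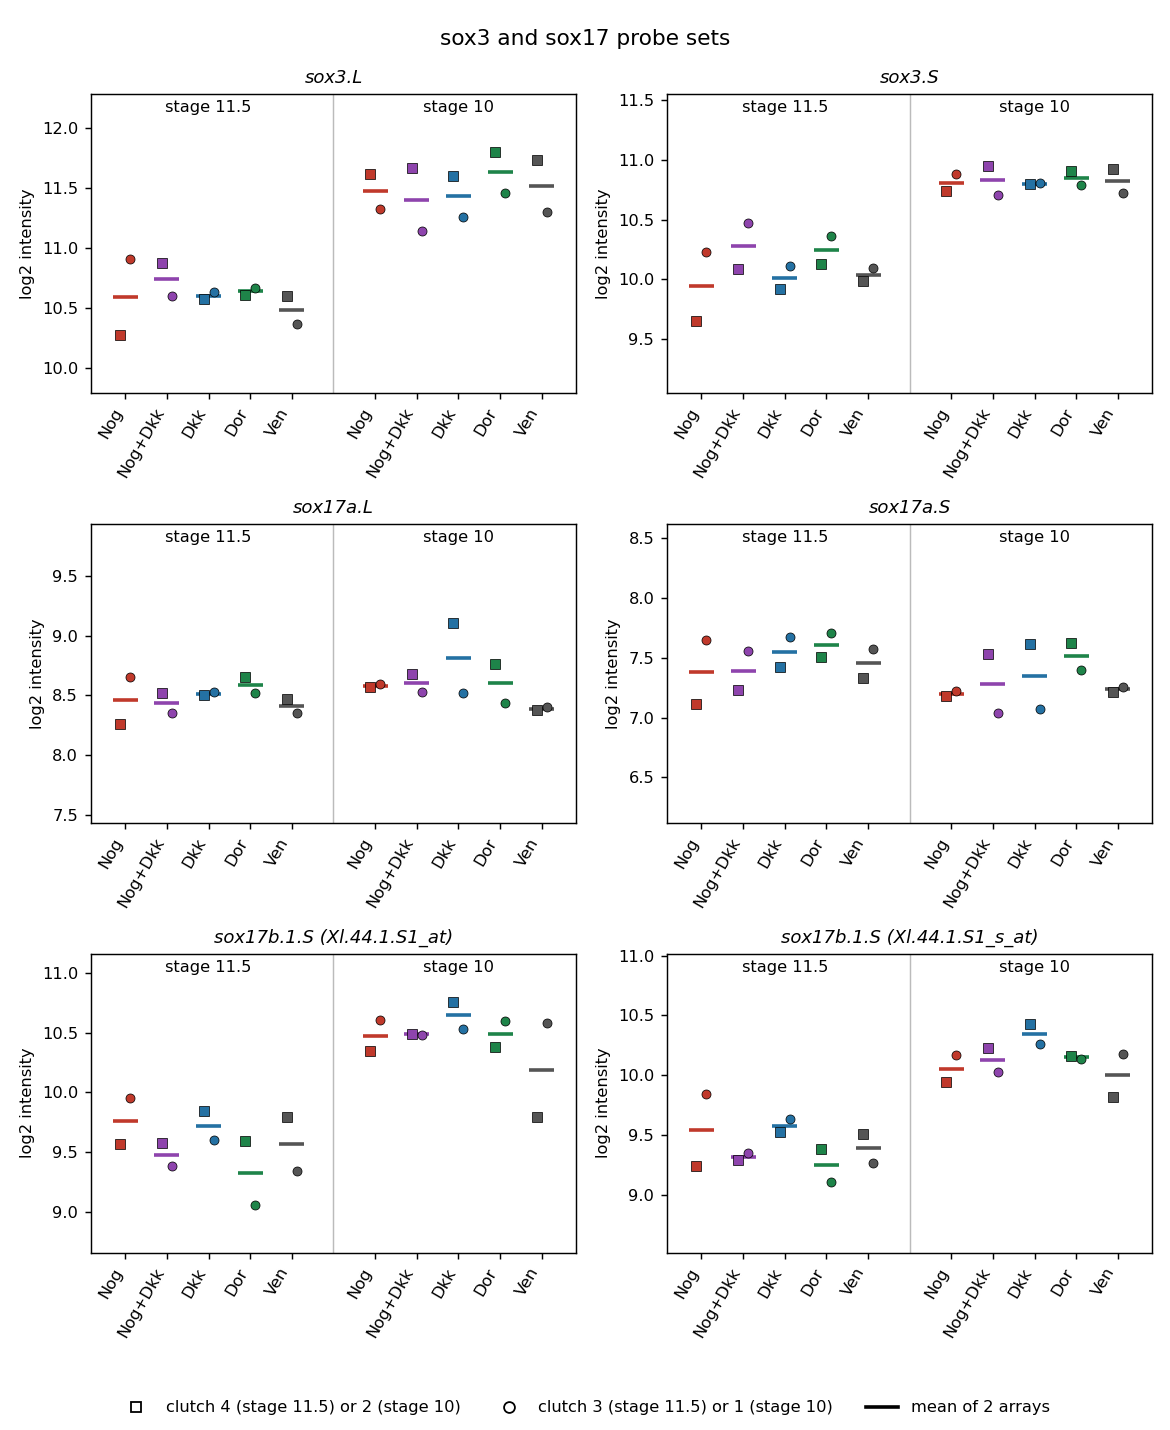
Log2 intensity (y axis, the same span in each panel) of the *sox3* and *sox17* probe sets, by condition at stage 11.5 (left) and stage 10 (right), with a point per array (squares clutch 4 or 2, circles clutch 3 or 1) and a bar at the mean of 2 arrays. Conditions lie close together within each stage, *sox3* and *sox17b.1.S* are lower at stage 11.5 than at stage 10, and at stage 10 the single clutch 2 array of **Dkk** stands above that of **Ven** on both *sox17a.L* and *sox17b.1.S*.

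The SoxF genes include *sox17a* and *sox17b*, determinants of the endoderm. None of the 7 SoxF probe sets was called against **Ven** in any condition at either stage. Of all probe sets, 0.445% to 8.57% were called at stage 11.5 and 0.0452% to 0.684% at stage 10. So few probe sets without a call do not set the group apart from the array. At stage 11.5 the brighter *sox17b.1.S* probe set read 9.06 and 9.59 in **Dor**, 9.38 and 9.58 in **Nog+Dkk**, 9.95 and 9.57 in **Nog** and 9.60 and 9.84 in **Dkk**, against 9.34 and 9.79 in **Ven**, and its changes ran from -0.24 (**Dor**) to 0.19 (**Nog**). *sox17a.L* read between 8.26 and 8.65 on the 10 arrays of that stage, and *sox17a.S* between 7.11 and 7.71. On *sox17a.L* **Dor** and **Dkk** lay above **Ven** in both clutches, by 0.18 and 0.11 on average, and neither difference passed the test. *sox7.L*, which is active in early mesendoderm and later in vessels, was -0.39 in **Dor** against **Ven** (SE 0.13, adjusted p = 0.187) with 4.42 and 4.79 in **Dor** and 4.79 and 5.19 in **Ven**, and the vessel genes *sox18.L* and *sox18.S* changed by -0.10 to 0.22 over the 8 comparisons.

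At stage 10 no *sox* probe set was called in any condition against **Ven**: 0 of 18 in **Dor** (0.684% of all), 0 in **Nog+Dkk** (0.271% of all), 0 in **Nog** (0.129% of all) and 0 in **Dkk** (0.0452% of all). At an unadjusted p under 0.05 **Dor** had 2, **Nog+Dkk** 0, **Nog** 2 and **Dkk** 2, and rank products at 10% FDR called 0 in each. The share of all probe sets was counted for neither, so these counts do not set the family apart from the array. Set against **Nog+Dkk**, the counts were also 0 for **Nog** (0.00646% of all), **Dkk** (0.0129% of all) and **Dor** (0.742% of all).

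At this stage the first *sox2.L* probe set read 7.93 and 8.12 in **Dor** (clutch 1 then clutch 2), 7.57 and 7.96 in **Nog+Dkk**, 7.89 and 7.74 in **Nog** and 7.38 and 7.75 in **Dkk**, against 7.78 and 7.57 in **Ven**. **Dor** was the highest in both clutches, by 0.35 over **Ven** (95% interval 0.06 to 0.63, adjusted p = 0.917). *sox11.S* read 10.84 and 11.00 in **Dor**, 10.47 and 10.60 in **Nog+Dkk**, 10.49 and 11.00 in **Nog** and 10.45 and 10.53 in **Dkk**, against 10.61 and 10.45 in **Ven**. **Dor** minus **Ven** was 0.39 (95% interval 0.14 to 0.64, unadjusted p = 0.00472, adjusted p = 0.406 in limma). **Nog** minus **Ven** was -0.12 in clutch 1 and 0.54 in clutch 2, where **Nog** read as high as **Dor**. *sox9.S* read 6.34 and 6.71 in **Nog**, against 6.71 and 6.86 in **Ven**, a difference of -0.26 (SE 0.10, adjusted p = 0.482). Of the single-gene groups, *sox13.S* changed by -0.07 to 0.25 over the 8 comparisons (the highest in **Nog** at stage 10, unadjusted p = 0.0275 in limma) and *sox15.L* by -0.25 to 0.23.

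The widest *sox* differences from **Ven** at stage 10 were those of *sox17a.L* and the brighter *sox17b.1.S* probe set in **Dkk**, and they came mainly from clutch 2. The other *sox17* probe sets differed by less. *sox17a.S* read 7.07 and 7.62 in **Dkk** (clutch 1 then clutch 2), against 7.26 and 7.22 in **Ven**. *sox17a.L* read 8.52 and 9.11 in **Dkk**, against 8.40 and 8.38 in **Ven** (clutch 1 then clutch 2), a mean difference of 0.43 (SE 0.15, adjusted p = 1). *sox17b.1.S* read 10.53 and 10.76 in **Dkk**, against 10.58 and 9.79 in **Ven**, a mean difference of 0.46 (SE 0.20, adjusted p = 1). In clutch 1 the differences were 0.12 and -0.05, and in clutch 2 they were 0.73 and 0.97, in part because the clutch 2 **Ven** array was the lowest of its stage on *sox17b.1.S*. The clutch 2 **Dkk** array is one of the 2 whose labels disagree on the clutch, and on *sox7.L*, where the clutches lie far apart, both read with the other clutch 2 arrays (7.46 in **Dkk** and 7.07 in **Nog+Dkk**, against 5.39 to 5.72 on the clutch 1 arrays).

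The response at stage 11.5 minus that at stage 10 was tested for each condition. Each stage had its own clutches, so such a difference cannot be told apart from one between clutches. For **Dor** 1 *sox* probe set passed (0.523% of all): the *sox9.S* change was more negative at stage 11.5 (-0.76) than at stage 10 (-0.12), a difference of -0.65 (SE 0.14, adjusted p = 0.0692), and that call was lost without clutch 1, 2 or 3 (adjusted p = 0.808, 0.923 and 0.629). The *sox2.L* response of **Nog+Dkk** differed by 0.93 on the second probe set (SE 0.23, adjusted p = 0.179) and 0.65 on the first (SE 0.19, adjusted p = 0.311). At stage 10 the second probe set was dim, at 3.51 to 4.12, and the part of this in its stage differences was not tested. The counts were 0 of 18 for **Nog+Dkk** (0.142% of all), 0 for **Nog** (1.56% of all) and 0 for **Dkk** (0.0129% of all), with 4, 3 and 1 probe sets at an unadjusted p under 0.05. On *sox9.S* the responses of these conditions differed by -0.54, -0.35 and 0.05, in the same order. The *sox2.L* response of **Dor** differed by 0.76 on the second probe set (SE 0.23, adjusted p = 0.335) and 0.39 on the first (SE 0.19, adjusted p = 0.962). Without clutch 4 the second probe set passed for **Nog+Dkk** (1.26, adjusted p = 0.0129) and for **Dor** (0.92, adjusted p = 0.0851), and with all clutches neither was shown to differ between the stages.

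Between the stages some *sox* transcripts differed widely and others little. Each stage had clutches of its own, so a stage effect and a clutch effect cannot be told apart beyond treating the clutch as a random block. Over the mean of the 5 conditions 4 of the 18 probe sets rose and 6 fell at stage 11.5 against stage 10, where 48.1% of all probe sets were called. In **Ven** alone 4 rose and 5 fell (42.2% of all). The arrays of the stages did not overlap on 5 of the 18 (32.7% of all). On simulated data this stage test called more false changes than its threshold implies, so its p-values are likely too small. That simulation changed far fewer probe sets than were called here, and the size of the excess in these data was not measured. The shares are close to those of the whole array, so the counts mark no difference between the family and other genes.

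*sox2.L* rose the most. The first probe set ran from 8.99 to 9.91 at stage 11.5 (median 9.41), against 7.38 to 8.12 at stage 10 (median 7.77), and the second from 5.53 to 6.96 (median 6.14), against 3.51 to 4.12 (median 4.01). The differences were 1.66 (SE 0.16, 3.16-fold, adjusted p = 2.11e-07) and 2.29 (SE 0.19, 4.88-fold, adjusted p = 4.84e-08). In **Ven**, which had received no antagonist, they were 1.36 and 1.89 (adjusted p = 4.20e-05 and 1.08e-05). The lowest stage 11.5 array lay above the highest stage 10 array on both. The second probe set was dim at stage 10, and the part of this in its larger difference was not tested.

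*sox3* went the other way. *sox3.L* ran from 10.27 to 10.91 at stage 11.5 against 11.14 to 11.80 at stage 10, and *sox3.S* from 9.65 to 10.48 against 10.71 to 10.95, with no overlap. The differences were -0.88 (SE 0.19, adjusted p = 8.79e-04) and -0.72 (SE 0.14, adjusted p = 5.70e-04), on 2 homeologs that are measured by separate probe sets. The SoxB1 genes thus moved in opposite directions between the stages, up on *sox2.L* and down on both copies of *sox3*.

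Among the other groups, *sox9.S* was 0.80 higher at stage 11.5 (SE 0.16, adjusted p = 4.45e-04), and *sox15.L*, a SoxG gene known in *Xenopus* for promoting neural differentiation, was 0.68 higher (SE 0.17, adjusted p = 0.00393). *sox17b.1.S* differed by -0.88 on its brighter and -0.72 on its dimmer probe set (adjusted p = 0.00444 and 0.00564), the dimmer an _s_at set, which by its name may also take up transcripts of related genes, while *sox17a.L* (-0.12) and *sox17a.S* (0.16) differed by less than their error. *sox7.L* fell, with a difference of -1.49 (SE 0.34, adjusted p = 0.00168), as did *sox13.S*, a SoxD gene, with one of -0.63 (SE 0.17, adjusted p = 0.00712). The *sox15.L* rise shrank to 0.28 after cyclic loess normalization (adjusted p = 0.18), and with the arrays of each clutch averaged, 2 against 2, *sox7.L* (adjusted p = 0.146) and *sox13.S* (adjusted p = 0.169) no longer passed.

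**Figure D4:**
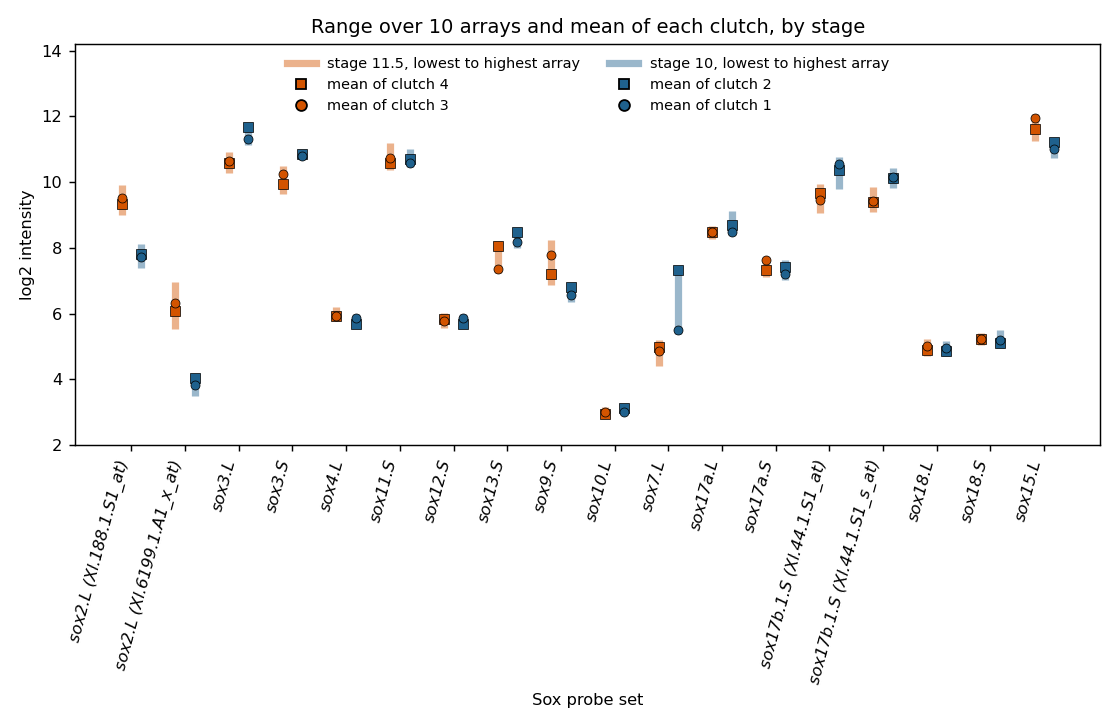
Log2 intensity (y axis) of each *sox* probe set (x axis), with a bar from the lowest to the highest of the 10 arrays of a stage (orange stage 11.5, blue stage 10) and points at the mean of each clutch (squares clutch 4 or 2, circles clutch 3 or 1). The bars of *sox2.L*, *sox3.L*, *sox3.S* and *sox7.L* do not overlap between the stages, and the long stage 10 bar of *sox7.L* is split by clutch, at 7.32 in clutch 2 and 5.50 in clutch 1.

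Clutch differences were as large as stage differences for some of these genes. *sox7.L* averaged 7.32 over the 5 arrays of clutch 2 and 5.50 over those of clutch 1, a difference of 1.81 (SE 0.08, 3.51-fold, adjusted p = 8.86e-12), and it was present in every condition. *sox7.L* read (clutch 2 then clutch 1) 7.36 and 5.49 in **Dor**, 7.07 and 5.48 in **Nog+Dkk**, 7.41 and 5.39 in **Nog**, 7.46 and 5.72 in **Dkk** and 7.28 and 5.43 in **Ven**. The stage difference of *sox7.L* accordingly was -2.39 without clutch 1 and -0.58 without clutch 2. *sox13.S* was 0.71 higher in clutch 4 than in clutch 3, with means of 8.06 and 7.35, and its stage difference was -0.27 without clutch 3 (adjusted p = 0.22) and -0.47 without clutch 2 (adjusted p = 0.125).

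In clutch 2 against clutch 1, 9 of the 18 *sox* probe sets were higher and 1 lower (46.1% of all called), and in clutch 4 against clutch 3, 1 was higher and 5 lower (44.9% of all called). The *sox9.S* difference was -0.60 for clutch 4 against clutch 3, and it was 0.26 higher in clutch 2 than in clutch 1. Leaving out the 2 arrays with disagreeing labels lowered the clutch 2 count to 5.

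After each clutch mean was taken out, the Pearson correlation over the 20 arrays, which share their normalization and the 10 groups, was 0.885 between the *sox2.L* probe sets, 0.791 and 0.768 between these and *sox11.S*, 0.641 and 0.791 between these and the uncalled *sox3.S*, and -0.643 and -0.646 between these and *sox9.S*. It was 0.593 between *sox9.S* and the uncalled *sox4.L*, 0.585 between *sox3.L* and *sox3.S*, 0.625 between *sox17a.L* and *sox17a.S*, and 0.924 between the *sox17b.1.S* probe sets.

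Outside the family, the named probe sets closest to *sox2.L* by the same measure were *slc29a2.L* (r = 0.914), *zic2.S* (0.898), *otx2.L* (0.882), *shisa1.1.L* (0.872) and *irx1.L* (0.869). *zic2*, *otx2* and *irx1* are transcription factor genes of the neural plate, and *slc29a2* and *shisa1* are on none of the marker lists used here. The study counts *otx2* among known organizer genes as well, so these values do not tie *sox2.L* to the neural plate alone. The closest to *sox17a.L* were *fbl.S* (0.793) and the endodermal gene *gata5.S* (0.697), and to *sox17a.S* the Wnt antagonist gene *frzb.S* (0.831). *sox3.S* was closest to *srsf5.S* (0.837), *sox3.L* to the unnamed locus MGC81124 (0.77) and *sox17b.1.S* to *cdc42se2.L* (0.82), none of them a listed marker of a germ layer. These are descriptions over 20 arrays, and each is among the 5 highest values of all probe sets with 1 symbol outside the family.

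Neural plate genes other than *sox* moved in both directions. Of all probe sets at stage 11.5, 2.84% were called in **Dor**, 4.60% in **Nog+Dkk**, 8.57% in **Nog** and 0.445% in **Dkk**. These shares stand beside the list counts here and below. Of 28 probe sets for 14 listed genes, 12 rose and 1 fell in **Dor**, 11 rose and 3 fell in **Nog+Dkk**, 2 rose in **Nog**, and 3 rose and 3 fell in **Dkk**, against **Ven** at stage 11.5. In **Dor** the largest were *otx2.L* (2.49 and 2.40), *otx2.S* (2.47) and *foxd4l1.1.S* (1.29), and in **Nog+Dkk** the posterior gene *gbx2.2.L* fell (-1.41) while *otx2.S* rose (1.97). In **Dkk** the *otx2* probe sets rose (1.01 to 1.08) and those of *gbx2* fell (-0.84 to -1.68). Because the study counts *otx2* among organizer genes, its rise is not a measure of neural plate alone. The median change of the list was 0.14 in **Dor**, 0.06 in **Nog+Dkk**, 0.16 in **Nog** and -0.05 in **Dkk**.

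The summed intensity of the neural plate list at stage 11.5 was 9000 to 9353 in **Nog+Dkk**, 9883 to 11474 in **Dor**, 7062 to 7363 in **Nog** and 6330 to 6626 in **Dkk**, against 5926 to 6736 in **Ven**. At stage 10 it was 9244 to 9897 in **Dor**, 7681 to 8568 in **Nog+Dkk**, 7715 to 8013 in **Nog** and 7203 to 7212 in **Dkk**, against 7078 to 7326 in **Ven**. Such a sum is led by the brightest probe sets of a list, so it is not a measure of the amount of a tissue. The organizer list moved too, with 14 of 15 probe sets up in **Dor**, 10 in **Nog+Dkk**, 4 in **Nog** and 3 in **Dkk**, and none down. That list holds *nog* and *dkk1*, the genes supplied as plasmid. Its counts in the injected conditions are therefore not a measure of organizer tissue alone. The part of the amount of neural and organizer tissue in the *sox2.L*, *sox9.S* and *sox11.S* values was not tested.

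Other neural crest and border genes moved in both directions. Of 21 probe sets for 8 genes at stage 11.5, 2 rose and 4 fell in **Dor**, 4 rose and 2 fell in **Nog+Dkk**, 3 rose in **Nog** and 0 were called in **Dkk**. *foxd3.L* and *foxd3.S* rose in **Dor** (0.91 and 0.93) and in **Nog+Dkk** (1.24 and 1.30), and *msx1.L*, a BMP target of the neural border, fell in **Dor** (-1.29) and in **Nog+Dkk** (-1.52). The study groups *foxd3* with trunk genes of the organizer, so its rise is not a measure of neural crest alone.

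Of the endodermal genes, which gave *sox17* its context, 21 probe sets for 12 genes were measured. At stage 11.5, 3 rose and 5 fell in **Dor**, 1 rose and 3 fell in **Nog+Dkk**, 3 rose and 1 fell in **Nog** and 0 were called in **Dkk**. *gata4.L* (0.94) and *cer1.S* (0.82) rose in **Dor**, *bix1.1.L* (-0.71) and *mix1.S* (-0.70) fell there, and *mixer.L*, a regulator of *sox17*, rose in **Nog** (1.02) and **Nog+Dkk** (0.65). The study counts *cer1* (cerberus) among organizer regulators, so its rise is not a measure of endoderm alone. The *sox17* probe sets, with 0 calls, had changes between -0.24 and 0.19 in the 4 conditions. The summed intensity of the endoderm list at stage 11.5 was 9782 to 13414 in **Dor** and 10124 to 15029 in **Nog+Dkk**, against 9922 to 13938 in **Ven**, with overlap throughout.

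The remaining lists are given as counts at stage 11.5. Of 18 probe sets for epidermis and non-neural ectoderm, 0 fell in **Dor**, 1 in **Nog+Dkk**, 3 in **Nog** and 0 in **Dkk**. Of 13 for ventral mesoderm, 8 fell in **Dor**, 8 in **Nog+Dkk**, 5 in **Nog** and 0 in **Dkk**, and of 7 for paraxial mesoderm 3, 2, 1 and 1 fell in the same order of conditions. No probe set of these lists rose. None of the 10 housekeeping probe sets and none of the 3 of *pou5f3*, whose protein partners Sox proteins on DNA, was called.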

How the data were processed

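The authors deposited 1 intensity value per probe set and array, made from raw probe intensities by RMA, which corrects for background, normalizes by quantiles and summarises the probes of each set (its version was not given in the sources used). The deposited intensities were on a linear scale, from 4.67 to 16895.2, although the methods describe log2 values, and were log2 transformed. Of 15611 probe sets, 120 controls were left out. Precision is limited by how few arrays there are, and no detection call was used.

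Symbols came from a table of the array's probes: 9304 tested probe sets had 1 symbol, 195 several and 5992 none, and 2 symbols were updated from RefSeq. Limma 3.58.1 (R 4.3.3) fitted 10 groups plus the clutch (8 residual and 9.82 prior degrees of freedom), with Benjamini-Hochberg adjustment within each comparison and a threshold of 0.1. Arrays of 1 clutch deviated together from their group means (r = 0.681 to 0.841 at stage 10, 0.485 to 0.801 at stage 11.5). Stages were compared with the clutch as a random block (within-clutch correlation 0.533). On simulated data this stage test made more false calls than its threshold implies, so clutch means, 2 against 2, were added after the data were seen. The alternatives were no replicate block, each stage alone, a low filter (mean log2 at or above the median, which 11 of the 18 passed), cyclic loess, rank products, each clutch left out (the stage then has 1 array per group and is assumed to vary like the other stage), and the arrays with 2 clutch labels left out. Figures were drawn with matplotlib.

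The members, the gene lists (neural plate, endoderm, neural crest and border, organizer, epidermis, ventral and paraxial mesoderm, *pou5f3*, housekeeping) and the comparisons were chosen with earlier results of these data known. All members were accounted for. Those called against **Ven** have their stage 11.5 values printed, and other members are given by ranges. For *sox2*, *sox3* and *sox17* the 5 named probe sets with the highest correlation were found, and list members were named by the size of their change.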

Additional observations from a re-analysis of the deposited data

Results flagged for a closer look

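The response of *sox9.S* in **Dor** differed between the stages by the test of the difference itself. Its change from **Ven** was -0.76 at stage 11.5 and -0.12 at stage 10, a difference of -0.648 (SE 0.145, adjusted p = 0.0692 in limma). The difference was -0.69 without clutch 1 (adjusted p = 0.808), -0.61 without clutch 2 (adjusted p = 0.923), -0.50 without clutch 3 (adjusted p = 0.629) and -0.79 without clutch 4 (adjusted p = 0.0572), and without the replicate block it had an adjusted p of 1. Within clutches **Dor** minus **Ven** was -0.91 and -0.62 at stage 11.5, against -0.16 and -0.08 at stage 10. The call was also lost without the arrays with disagreeing clutch labels. In the injected conditions the *sox9.S* difference was -0.54 (**Nog+Dkk**), -0.35 (**Nog**) and 0.05 (**Dkk**), none of them called, so its direction was not particular to **Dor**. Each stage had its own clutches, so a stage difference and a clutch difference cannot be told apart here.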

How the results depend on the processing

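No called *sox* value changed sign under the alternatives tried. Without the replicate block the counts at stage 11.5 fell to 0 in **Nog** (1 with it) and 0 in **Nog+Dkk** (3) and to 1 in **Dor** (4, the second *sox2.L* probe set remaining at adjusted p = 0.0928), all against **Ven**. They also fell to 0 for **Nog+Dkk** against **Nog** (1) and against **Dkk** (1), for **Dor** against **Nog** (4) and against **Dkk** (3), for **Nog** against **Dkk** (1), and for the stage difference of **Dor** (1). The unpaired fit adds the clutch differences to the error. Rank products called 3 in **Dor**, 1 in **Nog+Dkk** and 0 in **Nog**. Fitting each stage alone gave 0 for **Nog+Dkk** against **Nog** and 0 for **Nog** against **Dkk**. Cyclic loess gave 2 for **Nog+Dkk** against **Dkk**, and the low filter gave 2 for **Dor** against **Nog** and 6 for clutch 2 against clutch 1 (10), since it removes dim members. Without the arrays with 2 clutch labels the counts were 2 for **Nog+Dkk** against **Nog**, 0 for the stage difference of **Dor** and 5 for clutch 2 against clutch 1.

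Leaving out each clutch gave counts of 1 to 4 in **Nog** and 2 to 4 in **Dor** against **Ven** at stage 11.5, 0 to 1 for **Nog+Dkk** against **Nog**, 2 to 5 for **Dor** against **Nog**, 1 to 3 for **Dor** against **Dkk** and 0 to 1 for **Nog** against **Dkk**. The stage differences gave 0 to 1 in **Nog**, 0 to 1 in **Nog+Dkk** and 0 to 2 in **Dor**. The stage counts were 9 to 10 (mean of conditions) and 6 to 10 (**Ven**). At stage 10 the counts against **Ven** were 0 under every alternative run. The cause of the other changes was not tested. The share of all probe sets called under each alternative was not counted, so these counts have no array-wide share beside them. With 2 arrays per group, and 7 of 18 members dimmer than the median probe set, a member that missed the threshold is not shown to be level.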
